A study of Mus musculus with 18 samples.

Results

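The genes described here encode the proteins of the cytosolic ribosome. They were picked by name from the table of expression values: 83 identifiers followed the Rpl, Rplp or Rps naming pattern, and 81 of them reached 0.5 FPKM or more in at least 3 of 18 libraries. FPKM is the number of read fragments scaled to the length of the gene and to the total counted in the library. The whole table held 18683 genes, of which 13574 passed the same filter. The rule itself used no difference between groups, but the genes were chosen with earlier results of these data known. The member nearest above the filter was Rpl32l, at a mean of 0.718 FPKM over 18 libraries, and the pattern matches below it were Rpl39l at 0.117 and Rpl3l at 0.0936 FPKM. Sorted by name alone, the members comprised 47 proteins of the large subunit, 3 proteins of its stalk (Rplp0, Rplp1 and Rplp2) and 31 of the small subunit. These counts include paralogs and near-copies such as Rpl7l1, Rpl6l and Rpl32l. All 81 were tested in every comparison.

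The libraries were bulk RNA-seq of the prefrontal cortex or the hippocampus of male mice labelled C57BL/6J. In each tissue there were 3 groups of 3 libraries: wildtype with PBS, 5xFAD with PBS, and 5xFAD treated with human breast milk vesicles (EV, extracellular vesicles). All groups received 10 intravenous injections, 1 every 3 days, between 5 and 6 months of age, then behavioural tests and perfusion. 5xFAD mice are a model of amyloid deposition that carries mutant human transgenes, APP among them, driven by a neuronal Thy1 promoter. No vesicle-treated wildtype group was among these libraries. The labels do not state that the 3 libraries of a group came from separate mice, and the p-values reflect the spread among these libraries alone, which may be technical. In bulk tissue, fewer cells of a type and less RNA per cell cannot be told apart.

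A cytosolic ribosome is built from a small subunit, which reads the messenger RNA, and a large subunit, which joins the amino acids. Its proteins are made in matched amounts in every cell, and their mRNAs are among the most abundant in brain as in other tissues. Most of these mRNAs begin with a C followed by a run of pyrimidines, the 5′ terminal oligopyrimidine (TOP) motif, through which mTORC1 and the RNA-binding protein LARP1 set how strongly they are translated. Ribosomal protein genes also have many processed pseudogenes, whose reads can be hard to separate from those of the parent gene. How the authors' counting treated reads that match several places is not given in the sources used here, so values of single members carry that uncertainty, most of all Rpl6l and Rpl32l, near-copies of Rpl6 and Rpl32.

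The sequences around the annotated starts are shown because the pyrimidine run is what most of these mRNAs are known to share at their first base, and the rule that chose the genes did not use it. RefSeq starts on build GRCm38.p6 were found for 60 of 81 members. Each line gives 10 bases before the start and the first 20 transcribed bases, 5′ to 3′, with capitals on every C that is followed by 4 or more pyrimidines, together with that run.
Rpl28 (chr7:4792955-4792984, plus strand): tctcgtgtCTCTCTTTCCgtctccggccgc
Rpl35 (chr2:39005112-39005141, minus strand): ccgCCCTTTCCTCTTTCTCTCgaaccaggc
Rpl38 (chr11:114668570-114668599, plus strand): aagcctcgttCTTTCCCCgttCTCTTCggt
Rplp2 (chr7:141447641-141447670, plus strand): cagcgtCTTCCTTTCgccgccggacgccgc
Rps6 (chr4:86857348-86857377, minus strand): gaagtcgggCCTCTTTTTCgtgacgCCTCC
Rps18 (chr17:33955646-33955675, minus strand): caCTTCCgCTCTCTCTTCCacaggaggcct
Rps27 (chr3:90213629-90213658, minus strand): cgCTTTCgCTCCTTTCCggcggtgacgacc
Rplp0 (chr5:115559457-115559486, plus strand): cgggtttcgaggaccgcctggttCTCCTat
Rps27l (chr9:66946076-66946105, plus strand): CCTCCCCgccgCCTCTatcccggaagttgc
Rpl22 (chr4:152325716-152325745, plus strand): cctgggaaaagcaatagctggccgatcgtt
Rpl10 (chrX:74270806-74270835, plus strand): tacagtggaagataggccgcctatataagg

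In the lines for Rpl28, Rpl35, Rpl38, Rplp2, Rps6, Rps18 and Rps27, a C with 4 pyrimidines after it lay exactly at the annotated start. The run of Rplp0 began downstream of the annotated start, those of Rps27l lay just before and just after it, and Rpl22 and Rpl10 had none in the stretch shown. Exactly at the start, on the transcribed strand, the motif was found in 13 of 60 members (21.7%) and in 251 of 10803 tested genes with a RefSeq start (2.32%). The lines shown thus hold a larger share of such matches than the 60 members do. Within 20 bases of the start on either side it was found in 46 of 60 members (76.7%) and in 49.6% of tested genes. The letters CCGGAAG, searched on both strands over the 300-base window around the start, were found in 23 of 60 members (38.3%) and in 17.0% of tested genes. The reverse complement of that motif, CTTCCGG, holds a C with 4 pyrimidines, so these searches overlap. TATAAA, searched the same way, was found in 7 of 60 members (11.7%) and in 7.05% of tested genes. The wider window and the last pair of motifs were chosen after the sequences were seen. A match is a description of these letters and not evidence of a binding site.

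The members were among the highest values in the table. Averaged over 18 libraries, 70 of 81 exceeded 100 FPKM and 59 exceeded 200 FPKM, against a median of 7.0 FPKM over the 13574 genes past the filter. They made up 21.1% of the 279 genes above 200 FPKM. The highest mean was that of Rpl41, which encodes the shortest protein of the large subunit, at 1217 FPKM. Next came the stalk protein gene Rplp1 at 1130.1, Rps29 at 844, Rps15 at 813 and Rpl26 at 722 FPKM. Rpl32l was the lowest, followed by Rps27l at 5.91, Rpl7l1 at 18.6, Rpl6l at 23.2 and Rps15a at 35.4 FPKM. The low value of Rps15a stands beside a gene length of 5136 bases implied by its FPKM steps, and that of Rps20 (44.4 FPKM) beside 3446 bases, where the median member had 795 bases and 3221 bases was the median over all genes of the table. These were the only members longer than that median. Members took between 1.66% (wildtype prefrontal cortex 1) and 2.98% (5xFAD PBS hippocampus 2) of the reads counted in a library, and libraries held 26437860 to 36901748 such reads.

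The stalk proteins recruit the translation factors to the ribosome. Rplp0, the anchor of the stalk, measured 147, 211 and 163 FPKM in the wildtype prefrontal cortex libraries, 181, 214 and 186 in 5xFAD PBS and 177, 183 and 177 in vesicle-treated 5xFAD. In hippocampus it measured 178, 219.9 and 245 FPKM in wildtype, 231, 302 and 232 in 5xFAD PBS and 204, 188 and 253 in vesicle-treated 5xFAD. The groups overlapped within each tissue, and wildtype prefrontal cortex 2 and 5xFAD PBS hippocampus 2 were the highest of their groups. Rps6, the small-subunit protein that S6 kinase phosphorylates, gave 208 ± 37.3 FPKM (SD, n = 3) in wildtype, 219.8 ± 15.9 in 5xFAD PBS and 205 ± 9.68 in vesicle-treated prefrontal cortex. Its hippocampal means were 236 ± 20.4, 274 ± 49.1 and 234 ± 37.4 FPKM in the same order. Rpl41 was highest in the same libraries, with 1025, 1467 and 1019 FPKM in wildtype prefrontal cortex and 1195, 1839.5 and 1372 FPKM in 5xFAD PBS hippocampus.

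**Figure D1:**
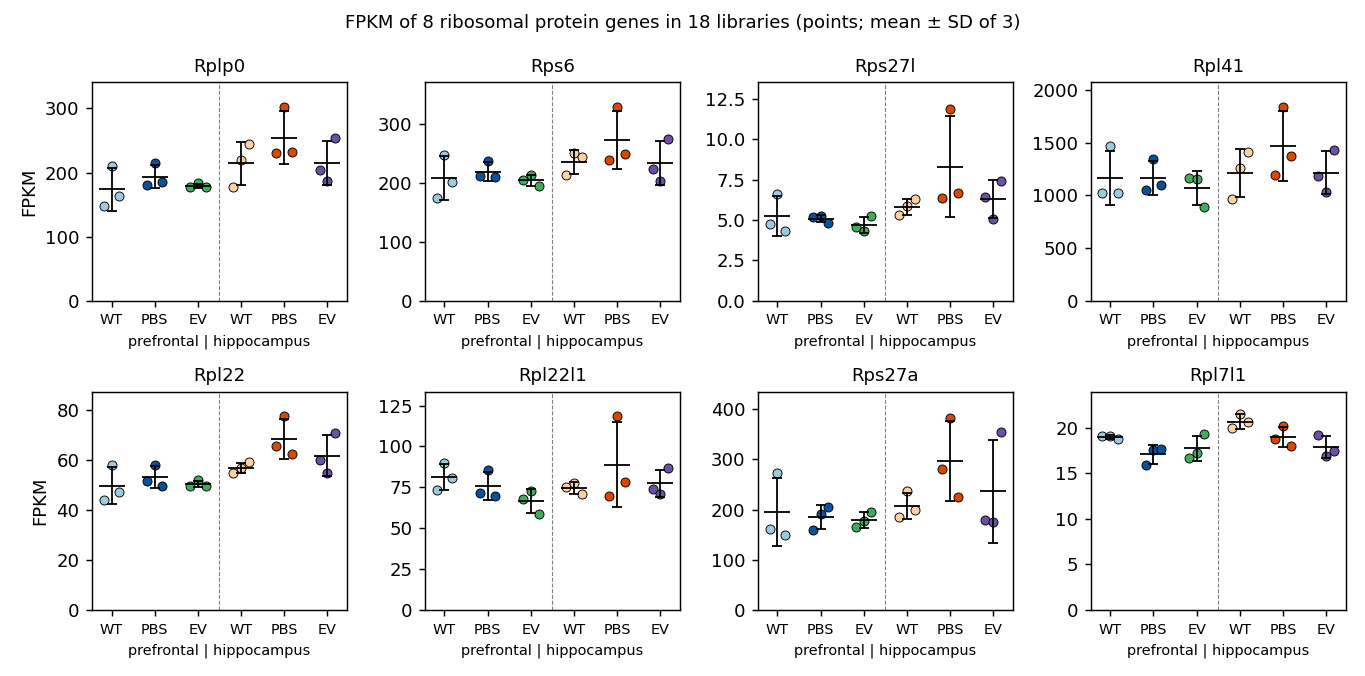
FPKM (y axes, from 0) of 8 members in each library (points), with the mean ± SD of 3 libraries per group; WT is wildtype PBS, PBS is 5xFAD PBS and EV is vesicle-treated 5xFAD. Groups of one tissue overlap in most panels, and the same libraries are high for Rplp0, Rps6 and Rpl41, while Rpl7l1 stays between 15.9 and 21.5 FPKM throughout.

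The main feature of the members was that they went up and down together from library to library, within groups as much as between them. Expressed as the median of the 81 genes on the log2(FPKM + 0.5) scale minus the mean of the wildtype libraries of the same tissue, wildtype prefrontal cortex gave -0.19, 0.30 and -0.11. The 5xFAD PBS prefrontal cortex libraries gave 0.00, 0.23 and 0.01, and the vesicle-treated ones 0.00, 0.08 and -0.14. In hippocampus the values were -0.21, 0.06 and 0.16 in wildtype, 0.00, 0.52 and 0.14 in 5xFAD PBS, and -0.09, -0.21 and 0.26 in vesicle-treated 5xFAD. All 81 members were above their own group's mean in wildtype prefrontal cortex 2, in 5xFAD PBS prefrontal cortex 2 and in 5xFAD PBS hippocampus 2, and 80 of 81 were in vesicle-treated hippocampus 3. A single component held 88.9% of the within-group variance of the 81 members, 75.7% for 78 mitochondrial ribosomal protein genes and 28.2% for all 13574 genes. Summed over members, the levels were 24342 ± 4749 FPKM (SD, n = 3) in wildtype, 25430 ± 2525 in 5xFAD PBS and 23514 ± 2064 in vesicle-treated prefrontal cortex. The hippocampal sums were 26954 ± 3850, 31403 ± 6044 and 26547 ± 4966 FPKM. Within each tissue, the group means of these sums differed by less than the larger SD of the groups compared.

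**Figure D2:**
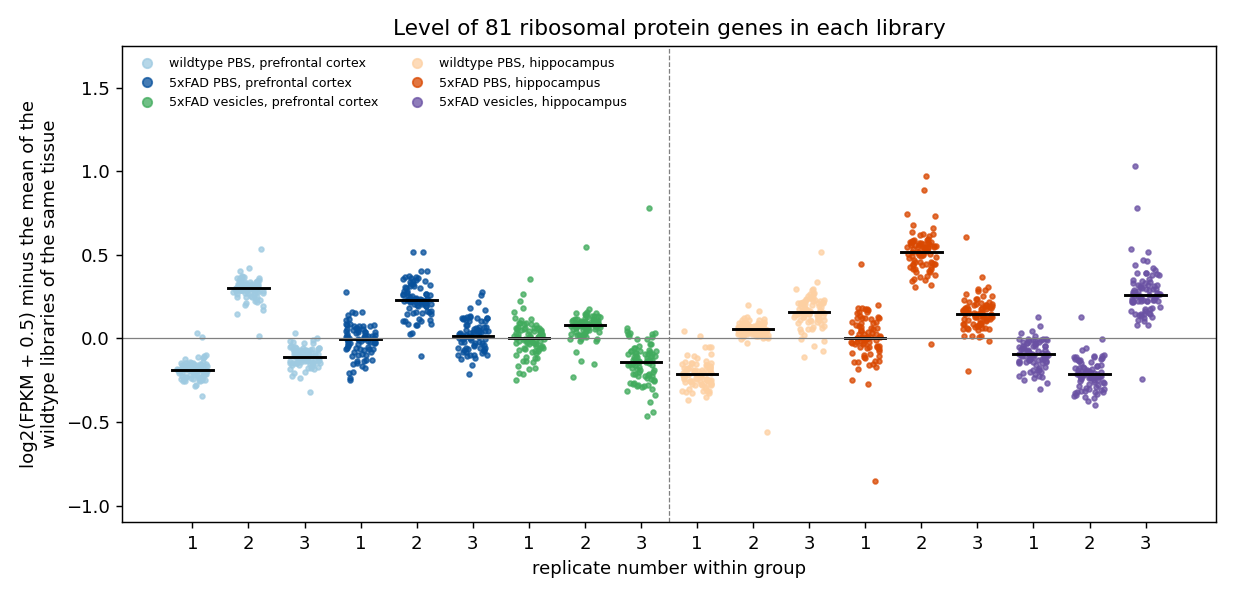
Each point is 1 of 81 members in 1 library, as log2(FPKM + 0.5) minus the mean of the wildtype libraries of that tissue (y axis); black bars are medians, and libraries stand in order of group and replicate number (x axis). Members cluster tightly within a library while medians run from -0.21 to 0.52 across libraries of one tissue.

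The library-wide level of the members moved with a property of the other genes. In each library, the slope of all other tested genes over log2 gene length was taken from their deviations from the tissue mean. The slopes were -0.10 and -0.08 log2 units per doubling of length in replicates 2 of the wildtype and 5xFAD PBS prefrontal cortex, the libraries where members were highest in that tissue, and 0.00 to 0.05 in the other 7. In hippocampus, all 9 libraries had the same rank by member level, from the highest, as by slope, from the most negative. The slopes there ran from -0.16 in 5xFAD PBS 2, where members were highest, to 0.10 in wildtype 1, where they were lowest. In prefrontal cortex, 5 of 9 libraries had the same rank on both measures. Short genes were thus relatively high in the libraries where the members, most of them short, were high. What sets the slope was not tested.

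**Figure D3:**
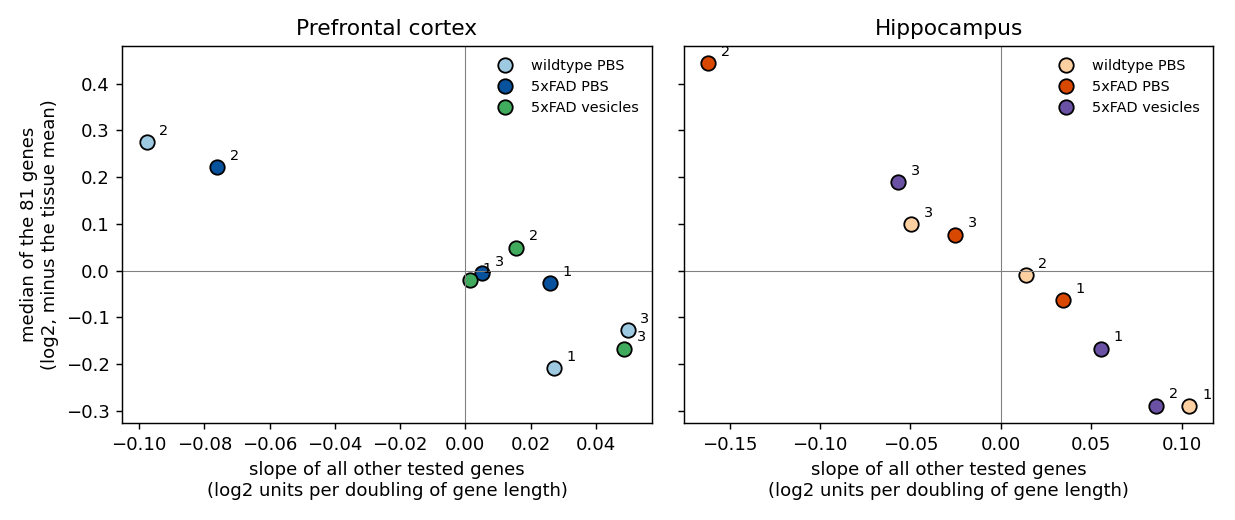
Median of the 81 members minus the tissue mean (y axis, log2) against the slope of all other tested genes over gene length (x axis, log2 units per doubling), 1 point per library, numbered by replicate, with 9 libraries in each tissue. The points with the most negative slopes, -0.10 in prefrontal cortex and -0.16 in hippocampus, have the highest member medians.

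Some members followed the others less closely. With the members' median deviation in each library taken off, the within-group SD was largest for Rpl32l (0.41), Rps27a (0.24) and Rpl7l1 (0.21). The plain within-group SD on the log2 scale was smallest for Rpl7l1 (0.08), a paralog of Rpl7. It was largest for Rpl32l (0.49), at no more than 1.73 FPKM, and for Rps27a (0.36), which encodes ubiquitin fused to a small-subunit protein. Rpl7l1 measured 19.1, 19.2 and 18.8 FPKM in wildtype prefrontal cortex, where the members' median ranged from -0.19 to 0.30. Rps27a measured 162, 272 and 149.7 FPKM in those libraries and 179, 175 and 355 FPKM in vesicle-treated hippocampus, where replicate 3 lay far above the other two.

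The genotype comparison asks how 5xFAD tissue differs from wildtype when both received PBS. In prefrontal cortex, limma on log2(FPKM + 0.5) called none of the 81 members at an adjusted p under 0.05, where 1.96% of 13055 genes tested were called. Only 1 member had an unadjusted p under 0.05, where 1065 of all genes did, and voom on recovered reads called none. The median log2 fold change of the members was 0.08, with 68 of 81 above 0, against 0.02 over all genes tested. The largest values were those of Rpl32l (0.35), Rpl29 (0.32 ± 0.16 SE, adjusted p = 0.72) and Rpl35 (0.26), and the smallest those of Rpl7l1 (-0.15), Rpl22l1 (-0.10) and Rpl31 (-0.07). The median was -0.02 without wildtype replicate 1, 0.00 without 5xFAD PBS replicate 2, 0.02 without wildtype replicate 3 and 0.22 without wildtype replicate 2, so its size and sign rested on single libraries.

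In hippocampus the members stood higher in 5xFAD PBS than in wildtype by a median log2 fold change of 0.22, with 80 of 81 above 0, against a median of 0.02 over all genes. None of the 81 passed the test, where 4.59% of 13305 genes did. Again 1 member had an unadjusted p under 0.05, where 2500 of all genes did, and voom on recovered reads called none. The small-subunit members had a median of 0.23, the large-subunit members 0.21 and the stalk members 0.16. Rps27a measured 185, 236 and 199.6 FPKM in wildtype and 281, 382 and 225 FPKM in 5xFAD PBS. It had the largest fold change, 0.49 ± 0.28 (SE, adjusted p = 0.39), and its groups overlapped. Rps27l, a paralog of Rps27 known as a p53 target, measured 5.32, 5.85 and 6.32 FPKM in wildtype and 6.37, 11.9 and 6.66 FPKM in 5xFAD PBS, where replicate 2 was far above the other two and the groups did not overlap (adjusted p = 0.33). Rpl22, whose protein binds RNA outside the ribosome as well, gave 55.0, 56.7 and 59.2 FPKM in wildtype and 65.6, 77.7 and 62.4 FPKM in 5xFAD PBS. These groups did not overlap, and the adjusted p was 0.25. Such a separation was counted neither over the members nor over all genes, so it is no result about single genes. It was not particular to Rps27l and Rpl22, and members such as Rpl23a, Rps25, Rpl4 and Rpl5 showed it too. Rps27, for example, measured 423, 491 and 405 FPKM in wildtype and 497, 734 and 534 FPKM in 5xFAD PBS. Rpl35 measured 403, 493 and 481 FPKM against 516, 649 and 506 FPKM. Rpl7l1 was the single member below 0 (-0.12).

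The hippocampal genotype value changed with the libraries used and with gene length. Without 5xFAD PBS replicate 2 the median was 0.08, without wildtype replicate 1 it was 0.11, and without 5xFAD PBS replicate 1 it was 0.33. With the length trend of each library removed, the median was 0.05 and 62 of 81 members were above 0. Choroid plexus epithelium markers differed between the same libraries: 9 of 11 were called higher in 5xFAD PBS hippocampus, none of the 11 was at 0, and their summed level was 35.9 to 169.3 FPKM in wildtype, 2635.7 to 8952.8 in 5xFAD PBS and 188.2 to 5739.9 in vesicle-treated libraries. Microglia markers were called higher in 11 of 12 cases, with summed levels of 319.8 to 378.5 FPKM in wildtype and 1392.4 to 1499.8 in 5xFAD PBS. Their part in the members' levels was not tested.

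The vesicle comparison asks how 5xFAD mice given vesicles differ from 5xFAD mice given PBS. It shares the 5xFAD PBS libraries with the genotype comparison, so the values of each stand side by side and the opposite signs are not separate evidence. In prefrontal cortex the members' median was -0.11 with 3 of 81 above 0, against 0.02 over all genes. In hippocampus it was -0.24 with 1 of 81 above 0, against -0.02. No member was called by limma in either tissue, where 0% of all genes were called, no member had an unadjusted p under 0.05, and voom called none. Over all genes, 616 in prefrontal cortex and 519 in hippocampus had an unadjusted p under 0.05.

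In prefrontal cortex the members furthest below 0 were Rps2 (-0.22 ± 0.15 SE, adjusted p = 0.82), Rpl29 (-0.22) and Rps21 (-0.21). In hippocampus they were Rps27a (-0.37 ± 0.28 SE, adjusted p = 0.87), Rpl39 (-0.34), a short protein of the exit tunnel, and Rps27l (-0.34). Rpl39 measured 204, 323 and 239 FPKM in 5xFAD PBS and 187, 168 and 248 FPKM in vesicle-treated hippocampus, and the groups overlapped. Rpl32l stood above 0 in both tissues (0.21 and 0.26), at levels of at most 1.73 FPKM in any library. With the length trend removed the medians were -0.03 in prefrontal cortex, with 22 members above 0, and -0.07 in hippocampus, with 9 above 0. Without 5xFAD PBS replicate 2 they were -0.03 and -0.09. The prefrontal median was -0.04 without vesicle-treated replicate 3, and the hippocampal median was -0.13 without vesicle-treated replicate 2 and -0.39 without vesicle-treated replicate 3.

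Cell type markers also differed between these libraries, though none of the lists given here had a called gene. In hippocampus the median log2 fold change was -1.11 for choroid plexus markers, with 0 of 11 above 0, and -0.97 for markers of meningeal fibroblasts, with 0 of 8 above 0. The summed level of the meningeal markers was 1213.4 to 3328.4 FPKM in 5xFAD PBS and 646.8 to 928 FPKM in vesicle-treated hippocampus, and the groups did not overlap. Red cell markers had medians of 1.67 in hippocampus (4 of 4 tested above 0) and 2.09 in prefrontal cortex (5 of 5), with summed levels of at most 65.6 FPKM in the vesicle-treated libraries. In prefrontal cortex these sums overlapped with those of 5xFAD PBS, and a wildtype library reached 69.4 FPKM. In prefrontal cortex, markers of mural cells, the contractile cells of vessel walls, had a median of 0.51 with 6 of 6 above 0, and summed to 30.9 to 38.7 FPKM in 5xFAD PBS and 43.7 to 54.4 in vesicle-treated libraries. The choroid markers summed to at most 868.9 FPKM in vesicle-treated prefrontal cortex, in replicate 3, against at most 8.9 FPKM in 5xFAD PBS. In that vesicle-treated library the neocortical neuron markers stood at a median of -0.61 log2 units from the wildtype mean. None of these markers was at 0 in these groups. Their part in the members' values was not tested.

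Vesicle-treated 5xFAD libraries were also compared with wildtype. The members' median was -0.02 in prefrontal cortex, with 25 of 81 above 0, and -0.01 in hippocampus, with 37 of 81 above 0. No member was called in either, where 1.52% and 2.1% of all genes were. An unadjusted p under 0.05 was found for 2 members in prefrontal cortex, where 1959 of 13055 genes had one, and for 1 in hippocampus, where 1642 of 13305 genes did. Voom called none. The sign of these medians depended on the scaling: with quantile normalization they were 0.07, with 64 members above 0, and 0.02, with 46 above 0. Leaving out 1 library moved them between -0.12, without wildtype prefrontal cortex 1, and 0.13, without wildtype prefrontal cortex 2, and between -0.16, without vesicle-treated hippocampus 3, and 0.09, without vesicle-treated hippocampus 2.

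**Figure D4:**
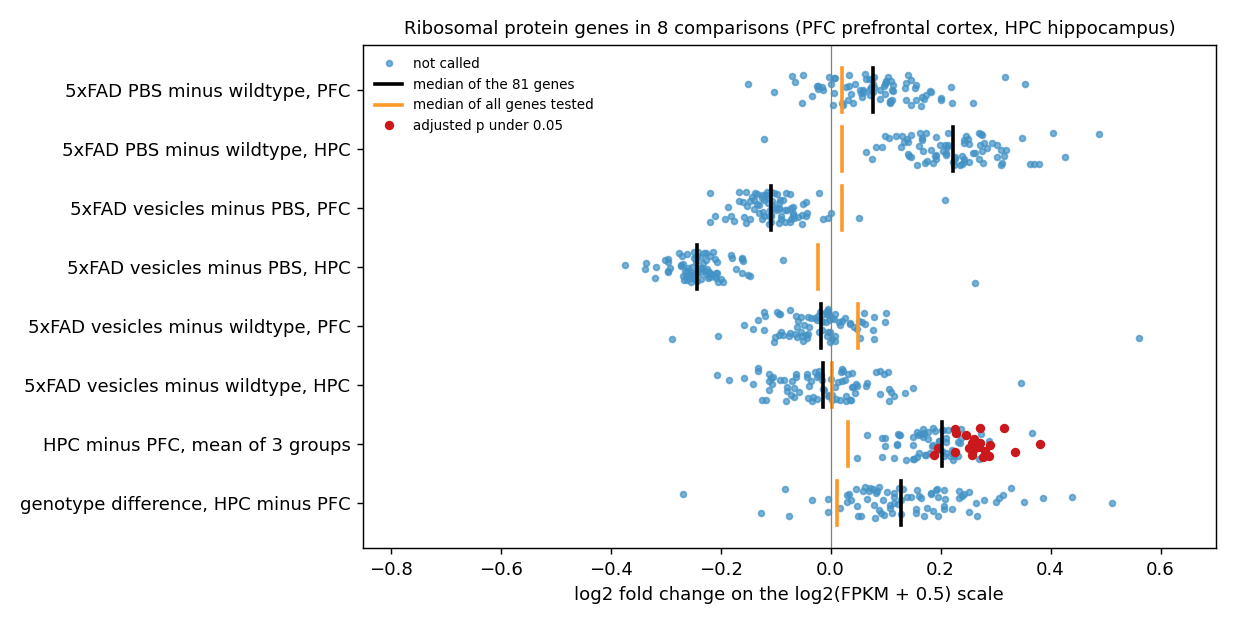
Log2 fold changes (x axis, log2(FPKM + 0.5) scale) of the 81 members in 8 comparisons (rows), with black bars for the members' median and orange bars for the median of all genes tested. Red points are the 21 members called in the tissue comparison, and the rows without red points hold no called member.

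The tissue comparison, hippocampus minus prefrontal cortex averaged over the 3 treatment groups, gave the only called members. Limma called 21 of 81 higher in hippocampus (25.9%), where 23.6% of 13574 genes tested were called higher, and 0 of 81 lower, where 17.8% of genes were called lower. The share called higher was near that of all genes, while the share called lower was below that of all genes. The fold change was above 0 for 81 of 81 members, with a median of 0.20 against 0.03 over all genes. By role, 12 of 47 large-subunit, 8 of 31 small-subunit and 1 of 3 stalk members were called. The fold changes of the called members ran from 0.19 to 0.38 log2 units.

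Among the called members, Rps27l rose most, by 0.38 ± 0.11 (SE, adjusted p = 0.013), from lowest 4.28, median 4.83, highest 6.64 FPKM in prefrontal cortex to lowest 5.08, median 6.37, highest 11.9 FPKM in hippocampus. Rplp0 rose by 0.32 ± 0.09 (adjusted p = 0.0086), with lowest 147, median 181, highest 214 FPKM against lowest 178, median 231, highest 302 FPKM. The tissues overlapped for both. Rpl22 had the smallest adjusted p of the members, 0.0023, at a fold change of 0.28 ± 0.06, with lowest 44.2, median 49.8, highest 58.3 FPKM against lowest 54.7, median 59.9, highest 77.7 FPKM. Rpl10, which lies close to the peptidyl transferase centre, Rpl30, Rpl18, Rps9 and Rpl36a were also among the 10 largest, at 0.29, 0.29, 0.27, 0.27 and 0.27. Rps6 was called at 0.23 (adjusted p = 0.036) and Rpl3, a core protein of the large subunit, at 0.26 (adjusted p = 0.014). Also called were Rps13, Rpl21, Rpl7, Rps4x, Rps3a1, Rpl6, Rps3, Rpl5 and Rpl7a.

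Being called followed the precision as well as the size. Rps27a had a fold change of 0.37, above all called members but Rps27l, and was not called (SE 0.15, adjusted p = 0.062). Called members had a median fold change of 0.26, a median length of 1301 bases and a median SE of 0.09 (0.06 to 0.11). Those not called had 0.18, 729.5 bases and 0.10 (0.04 to 0.21), so the ranges of the SE overlapped. The smallest fold changes were those of Rpl29 (0.05), Rpl17 (0.07) and Rpl7l1 (0.09).

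**Figure D5:**
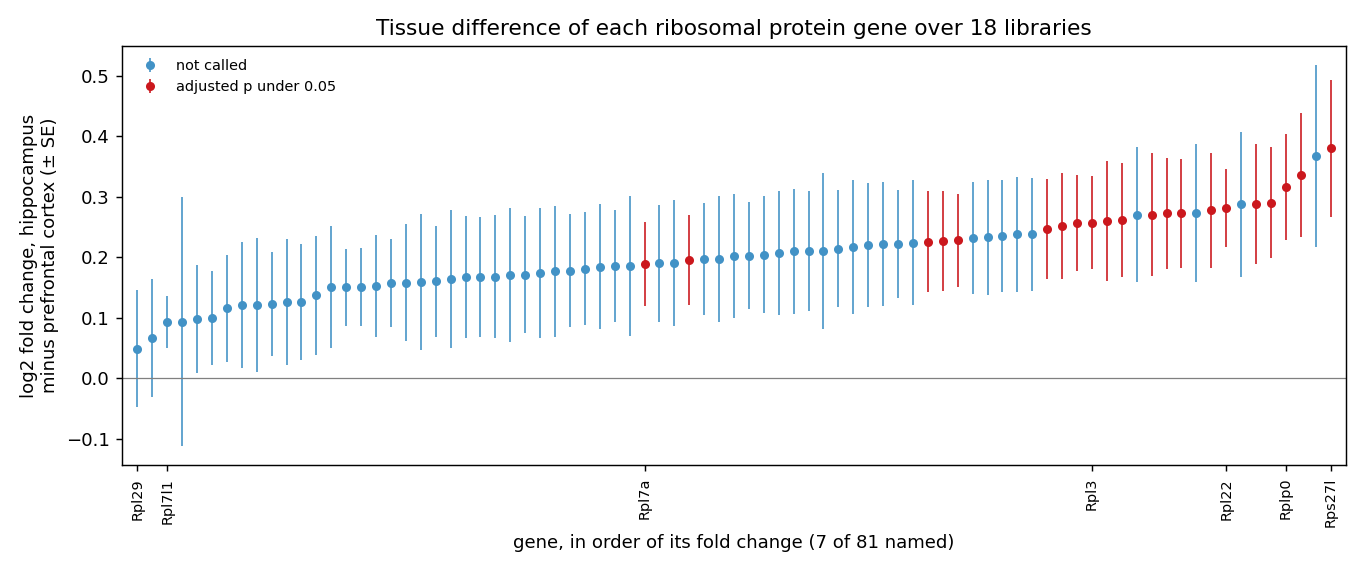
Log2 fold change, hippocampus minus prefrontal cortex, with its SE (y axis) for each of the 81 members in order of size (x axis), from 0.05 for Rpl29 to 0.38 for Rps27l. All estimates lie above 0, and the 21 called members (red) reach down to Rpl7a at 0.19, below the members' median of 0.20.

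The tissue result was tied to the libraries used. Of the 21 called members, 7 were called in each of the 18 fits that left out 1 library, among them Rpl3, Rpl7, Rpl10, Rpl22, Rplp0 and Rps27l. The number called was 7 without wildtype prefrontal cortex 1 or without wildtype hippocampus 3, 8 without 5xFAD PBS hippocampus 2, and 52 without wildtype prefrontal cortex 2. It was 9 to 12 without prefrontal cortex libraries wildtype 3, 5xFAD PBS 1 or 3 or vesicle-treated 3, or without hippocampus libraries wildtype 2 or vesicle-treated 3, and 32 to 37 without hippocampus libraries wildtype 1, 5xFAD PBS 1 or vesicle-treated 2. With each library's length trend removed, 57 of 81 members were above 0, the median was 0.06 and 19 of the 21 were still called, all but Rpl36a and Rpl7a. Relative to the members' own median in each library, a scaling chosen after the data were seen that lowers the median of all genes from 0.03 to -0.17, 2 members were called higher, Rplp0 (0.11, adjusted p = 0.048) among them, and Rpl17 (-0.14, adjusted p = 0.011) was called lower. By treatment group, the median tissue difference of the members was 0.16 in wildtype (78 of 81 above 0), 0.28 in 5xFAD PBS (80 of 81) and 0.16 in vesicle-treated 5xFAD (80 of 81).

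Cell type markers differed between the tissues in the same libraries. Markers of hippocampal neurons were called higher in hippocampus for 5 of 6 genes and those of neocortical neurons lower for 5 of 6, as the tissue labels say. Oligodendrocyte markers were called higher in hippocampus for 8 of 9 genes, microglia markers for 9 of 12, choroid plexus markers for 10 of 11 and ependymal markers for 7 of 7, while general neuronal markers were called lower for 6 of 10. Their part in the members' tissue difference was not tested.

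Whether the genotype difference itself differed between hippocampus and prefrontal cortex was tested directly. No member was called by limma, where 0% of 13574 genes were called, no member had an unadjusted p under 0.05 (787 genes did), and voom called none. The median over members was 0.13, with 74 of 81 above 0, and it was 0.00 with 40 above 0 when the length trend was removed. It was -0.01 without wildtype prefrontal cortex 2, -0.01 without 5xFAD PBS hippocampus 2 and 0.02 without wildtype hippocampus 1. The largest values were those of Rps27a (0.51 ± 0.37 SE, adjusted p = 0.92), Rps27l (0.44) and Rpl39 (0.39).

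Several members have a paralog, and some of these paralogs are known from particular tissues. Rpl22l1 stood above its partner, at a mean of 77.4 FPKM against 56.8 for Rpl22. The implied gene lengths were 489 bases for Rpl22l1 and 2343 for Rpl22, and this order in FPKM depends on them. The ratios below carry such lengths as well: 346 bases for Rps27 and 2150 for Rps27l, 934 for Rpl7 and 2606 for Rpl7l1. The ratio of Rpl22 to Rpl22l1 per library had a median of 0.714 in prefrontal cortex (0.584 to 0.850) and 0.800 in hippocampus (0.657 to 0.940), and the tissues overlapped. Rps27 exceeded Rps27l with a median ratio of 88.5 in prefrontal cortex (70.3 to 110.5) and 78.0 in hippocampus (61.7 to 84.8). Rpl7 exceeded Rpl7l1 with median ratios of 17.6 and 18.2. Rpl39l, known from testis, was listed between 0 and 0.647 FPKM over 18 libraries, where Rpl39 averaged 204 FPKM. Rpl3l, known from striated muscle, was listed between 0 and 0.177 FPKM, where Rpl3 averaged 425 FPKM.

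Other genes of the translation apparatus were read from lists chosen with results of these data known. Of 6 ribosomal protein genes whose names fall outside the pattern (Rpsa, Fau, Rack1, Rpl36al and Rps27rt among them), none was called in any comparison, and their medians were 0.18 for tissue, 0.21 for genotype in hippocampus and -0.25 for vesicles in hippocampus, close to the members' 0.20, 0.22 and -0.24. Of 17 elongation factors and other TOP mRNAs, 7 were called higher and 1 lower in hippocampus against prefrontal cortex, with a median of 0.17, where 23.6% of all genes were called higher and 17.8% lower. Eef1a1, the main elongation factor, was higher there by 0.34 and Nap1l1, a histone chaperone, lower, at -0.40. Of 78 mitochondrial ribosomal protein genes, 10 were called higher and 1 lower in hippocampus, with a median of 0.07. Of 45 genes of ribosome biogenesis and RNA polymerase I, 6 were higher and 1 lower, with a median of 0.07. The 29 initiation factors gave 1 higher and 2 lower, and the 30 genes of mTORC1 and TOP control 6 higher and 7 lower. For genotype in hippocampus, the medians were 0.16 for elongation factors and other TOP mRNAs, 0.05 for mitochondrial ribosomal proteins and -0.04 for ribosome biogenesis, and none of these 3 lists had a called gene in that comparison. For vesicles in hippocampus, their medians were -0.16 (2 of 17 above 0), -0.17 (2 of 78) and -0.01 (21 of 45) in the same order. Negative values in that comparison were thus not particular to the members.

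The genes outside the members that followed them most closely were found by the correlation of within-group deviations over 18 libraries. Each gene was set against the mean of the members, as a description that shares library and depth effects. Coa8 had r = 0.987, Fth1, the ferritin heavy chain, 0.987, and Fau, a ribosomal protein fused to a ubiquitin-like domain, 0.985. Gpx1, Gstm5, Rack1, Rpl37rt, Pfdn5, S100a1 and Eef1g followed, down to 0.981. The lengths implied for these 10 genes ran from 515 bases for Fau to 1893 for Coa8, all under the table's median length.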

How the data were processed

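The deposited table holds FPKM for 18683 genes in 18 libraries, and all 18 columns matched a sample by name. The submitters' processing notes name fastp, HISAT2, HTSeq and GRCm39, without versions or roles; the filter for multiply mapped reads is not given in the sources used here. The deposited FPKM values are whole multiples of 1 read for 100% of genes (tolerance 1e-06), which gave reads and gene lengths for each gene. The members and lists were chosen with earlier results of these data known.

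FPKM values were tested with limma 3.58.1 (R 4.3.3) on log2(FPKM + 0.5), with a trended two-sided moderated test and Benjamini-Hochberg adjustment over all genes at 0.5 FPKM or more in at least 3 of the libraries fitted; an adjusted p under 0.05 was called. A fold change on this scale understates the change of low genes. Single-tissue comparisons used 9 libraries, and the tissue and genotype-by-tissue comparisons all 18. The fit was tested on simulated data for genotype in prefrontal cortex, with noise drawn separately for each gene. It called 92 of 100 genes changed by 1 log2 unit, 98 of 100 changed by 2 and 8 of 12855 unchanged genes. Smaller shifts, and shifts of a library shared by many genes, were not simulated. No library repeated another of its own group within sampling noise, and libraries of different groups were not compared in this way. The 8 comparisons were refitted with 11 other settings, leaving out each library in turn among them, and with 1 more that was chosen after the data were seen.

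Members named were those with a fixed role or paralog, the 5 highest and 5 lowest by level, the 3 at each end of a comparison, up to 10 called per comparison and the 3 at each end of the within-group spread. A few others are named from counts and were chosen after their values were seen. Some members that these rules select are not reported here.

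Replicate numbers are shared across groups, and the labels do not say what they mark. Deviations from group means of libraries with the same number correlated at 0.21, 0.51 and 0.17 between wildtype and 5xFAD PBS prefrontal cortex. The numbers may pair these libraries, a reading that rests on the values alone. However, 5xFAD PBS 1 correlated best with wildtype 3 and not with wildtype 1. The values reported for that comparison come from the fit without the replicate block; with it, 218 genes were called in place of 256, no member among them, and 3 members in place of 1 had an unadjusted p under 0.05. In the other comparisons at least 1 number was below 0.1, and no pairing was assumed.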

Additional observations from a re-analysis of the deposited data

How the results depend on the processing

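Outside the tissue comparison, none of the 11 other settings, nor any fit without 1 library, gave a called member. In the tissue comparison, 21 members were called; the count was 13 with median ratio scaling, 14 without a filter on low values, 30 with quantile normalization and 7 to 52 over the 18 fits without 1 library. Relative to the members' own median in each library, 2 members were called higher and 1 lower, Rpl17, at -0.14. With the replicate block, 27 members were called in the tissue comparison: 20 of the 21, without Rpl21 (adjusted p = 0.052), and others such as Rps27a (0.37, adjusted p = 0.026). In the other comparisons the block gave no called member. Over all genes, the calls for genotype in hippocampus numbered 611, and 933 with the length trend removed, 275 with a filter at 5 FPKM and 171 relative to the members' median. For genotype in prefrontal cortex they numbered 256, and 107 and 116 under the last pair of settings. For vesicle-treated libraries against wildtype, those settings gave 149 and 155 in place of 280 in hippocampus and 99 and 108 in place of 198 in prefrontal cortex, where quantile normalization gave 125. The filter took the tissue count from 5616 to 3742. Of 480 values of single named members under other settings, 16 had the other sign, 1 of them where called. Rpl32l rests on few reads, and with 3 libraries a group, a shift shared by all members of a library cannot be told apart from a change of the group.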
